A study of Mus musculus with 6 samples.

Results

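The acute phase and inflammatory signalling genes are a set of 35, read from a mouse liver count table by exact gene symbol. Of these, 15 encode secreted acute phase proteins and 20 encode cytokines, chemokines, receptors, signalling proteins or adhesion molecules. The table has a row for 32 of the 35, among 41096 annotated rows. Saa1, Saa2 and Cebpd have no row under their symbols. A filter on low counts left 28 of the 35 among 12468 genes tested, and Il6, Tnf, Ccl2 and Cxcl2 fell below it. Polyadenylated RNA was sequenced in 3 liver libraries with DEHP exposure and in 3 liver libraries without it, the controls. DEHP is di(2-ethylhexyl) phthalate, used to soften plastics. The labels name the tissue, mouse liver, and leave out dose, duration, strain, sex and age. The table heads the DEHP columns with the word High. Separate animals are nowhere stated, and the p-values therefore speak only of the spread among these 6 libraries, which may be technical.

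The acute phase response is the change in plasma protein production by hepatocytes after infection or injury. Interleukin-6 acts through its receptor (Il6ra) and STAT3, and interleukin-1 and tumour necrosis factor act through NF-kappaB. C/EBP transcription factors act with both routes on the genes of secreted proteins, and Socs3, Nfkbia and Tnfaip3 are induced inhibitors that limit the same signals. In liver, the cytokines themselves come largely from macrophages such as Kupffer cells, while haptoglobin, hemopexin and serum amyloids come largely from hepatocytes.

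Total counts ranged from 10410098 to 12405044 in DEHP libraries and from 12001969 to 14229803 in control libraries. For many of the genes reported here, control replicates 1 and 2 stood apart from the other 4 libraries, and most differences reported rest on them. Interferon-stimulated genes summed to 475 to 541 CPM in the 3 DEHP libraries, against 5694 CPM in control replicate 1, 4883 in control replicate 2 and 515 in control replicate 3. CPM are counts scaled to a common library size, with the TMM factors of edgeR. Hepatocyte markers were abundant in every library, with sums of 79458 to 110934 CPM in DEHP libraries and 91341 to 126026 CPM in control libraries.

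The promoter sequences of 4 genes are shown because, among members averaging at least 5 CPM, these had the largest absolute log2 fold changes, 2 of secreted proteins and 2 of the other genes. Each is the 250 bases before the annotated start, 5′ to 3′ on the strand of the gene, from RefSeq on build GRCm38.p6. Capitals mark matches to the motifs searched on both strands, which were TTCNNNGAA for STAT, TTGCNNAA for C/EBP, the NF-kappaB motif and the interferon-stimulated response element. The windows are chr2:32387740-32387989 on the minus strand for Lcn2, chr4:63362199-63362448 on the plus strand for Orm2, chr5:90890995-90891244 on the plus strand for Cxcl1 and chr5:92348890-92349139 on the minus strand for Cxcl10.
Lcn2: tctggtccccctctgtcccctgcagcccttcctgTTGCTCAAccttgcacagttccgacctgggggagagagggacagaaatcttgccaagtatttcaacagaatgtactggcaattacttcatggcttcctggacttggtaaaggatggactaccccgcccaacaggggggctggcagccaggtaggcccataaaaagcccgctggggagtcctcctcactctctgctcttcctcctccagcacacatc
Orm2: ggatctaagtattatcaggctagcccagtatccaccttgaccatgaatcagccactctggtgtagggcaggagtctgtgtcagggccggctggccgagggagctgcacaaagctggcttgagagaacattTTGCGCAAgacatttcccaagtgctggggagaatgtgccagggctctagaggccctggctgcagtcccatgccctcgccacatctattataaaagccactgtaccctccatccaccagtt
Cxcl1: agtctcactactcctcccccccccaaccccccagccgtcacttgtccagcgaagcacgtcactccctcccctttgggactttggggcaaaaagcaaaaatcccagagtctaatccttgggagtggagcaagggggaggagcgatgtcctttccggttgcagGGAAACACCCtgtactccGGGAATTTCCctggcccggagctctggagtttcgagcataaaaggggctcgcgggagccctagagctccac
Cxcl10: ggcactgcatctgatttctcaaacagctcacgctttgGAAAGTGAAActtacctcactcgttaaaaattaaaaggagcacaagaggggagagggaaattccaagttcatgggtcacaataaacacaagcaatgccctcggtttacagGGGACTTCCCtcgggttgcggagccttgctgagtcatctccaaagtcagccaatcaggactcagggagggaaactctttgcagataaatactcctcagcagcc

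Lcn2 and Orm2 each held a C/EBP match, which began 216 and 120 bases before the start. Cxcl1 held 2 NF-kappaB matches, 1 of them on the opposite strand, and Cxcl10 held an NF-kappaB match and a response element match. RefSeq promoters were found for 28 of the 35 genes, not for Ccl2, Cd14, Cebpd, Hp, Lbp, Orm1 and Vcam1. The C/EBP letters were in 8 of 12 promoters of secreted proteins and in those of 3 of the 16 other genes, against 10.8% of all 27025 genes in the RefSeq table. Those 8 were Hpx, Lcn2, Orm2, Orm3, Saa1, Saa2, Saa3 and Saa4. Most of them belong to the Saa and Orm families, so the 8 matches may not be independent. NF-kappaB letters were in 0 of 12 secreted and 9 of 16 other genes, against 4.71% of all genes. The 9 were Cxcl1, Cxcl2, Cxcl9, Cxcl10, Il1rn, Il6, Nfkbia, Tnfaip3 and Steap4, and the Cxcl genes among them are likewise of a family. STAT letters were in 5 of the 28 genes, against 8.13% of all genes, and the response element letters in 3 of 28, against 3.46%. No 2 matches of different motifs overlapped in the promoters of these 28 genes. A match is a description of letters and not a bound site.

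The comparison of DEHP with control libraries asked which of these genes differ with exposure. The log2 fold change was negative for 10 of 13 tested genes of secreted acute phase proteins, with a median of -0.83, against -0.03 over all 12468 genes. Among the 15 tested cytokine, chemokine, receptor, signalling and adhesion genes, 10 were negative, with a median of -0.28. None of the 28 passed an adjusted p of 0.05 (edgeR quasi-likelihood test with Benjamini-Hochberg adjustment), where 0.0722% of all genes passed. At an unadjusted p of 0.05, 9 of the 28 were lower and 1 was higher, where 6.97% of all genes were lower and 6.11% higher. DESeq2 called 4 of the genes as lower (Hpx, Itih4, Icam1 and Steap4), where it called 1.21% of all genes with an adjusted p as lower. Without a low-count filter edgeR called 8 of the 32 genes with a row as lower, where 1.34% of 20576 genes, low-count ones included, were. The 8 were 7 of the 28 tested genes and Ccl2, which fell below the filter. In that fit the SE of Hp, 0.222, was close to that of Saa4, 0.215, against 0.348 and 0.201 with the filter. Calls of abundant genes in it take less account of the spread of each gene. The limma-voom fit called 0, where 0.0561% of all genes passed. The 3 DEHP libraries lay below all 3 control libraries for 5 of the 28 genes and above them for 1, where 8.57% and 9.17% of all genes did so.

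**Figure D1:**
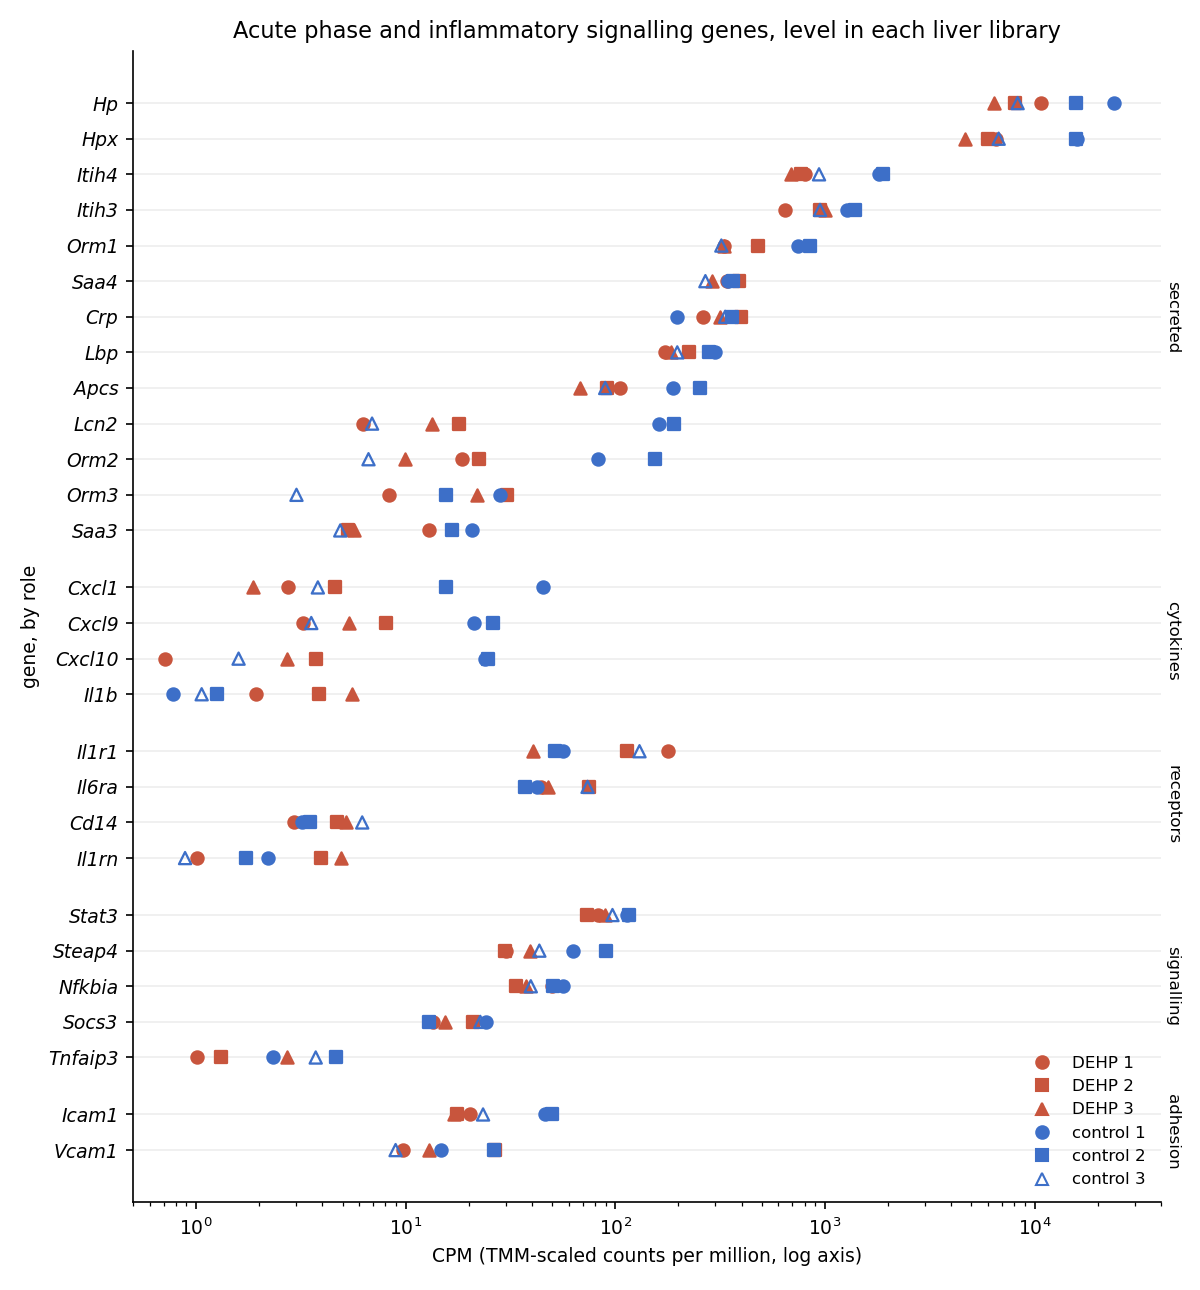
Level of each of the 28 tested genes in each library, in TMM-scaled CPM on a log axis, grouped by role and ordered by mean level within a role. For most secreted proteins and chemokines, control replicates 1 and 2 (filled blue) lie to the right of the DEHP libraries (red), while control replicate 3 (open triangle) lies among or near them.

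Control replicates 1 and 2 both lay above the other 4 libraries for 17 of the 28 genes, 10 of 13 secreted and 7 of 15 others, where 12.7% of all genes tested did so. Control replicate 3 lay within the range of the DEHP libraries for 12 of the 28 genes, above it for 8 and below it for 8. The shares of all genes at these positions were not counted, so these counts only describe the 28 genes. With control replicate 3 left out, 12 of the 28 genes passed as lower, 7 secreted and 5 others, where 2.16% of all genes passed as lower. They were Apcs, Hp, Hpx, Itih4, Lcn2, Orm1, Orm2, Cxcl1, Cxcl9, Cxcl10, Icam1 and Steap4. With control replicates 1 and 2 left out, 0 members and 0 genes in all passed (edgeR), 3 members were higher at an unadjusted p of 0.05 where 2.27% of all genes were, and the median of the secreted proteins was 0.03. That fit has a single control library, assumed to vary as the DEHP libraries do. In it 7 of the 13 secreted genes had a positive log2 fold change and 6 a negative one. The value was -0.23 for Hpx, -0.30 for Itih4, 0.029 for Hp, 0.26 for Orm1 and 0.71 for Saa3. It was 0.88 for Lcn2, 1.36 for Orm2 and 2.76 for Orm3, the largest of the 13. Among the other genes it was -0.29 for Cxcl1, 0.61 for Cxcl10, 0.66 for Cxcl9, -0.39 for Steap4 and -0.23 for Stat3.

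**Figure D2:**
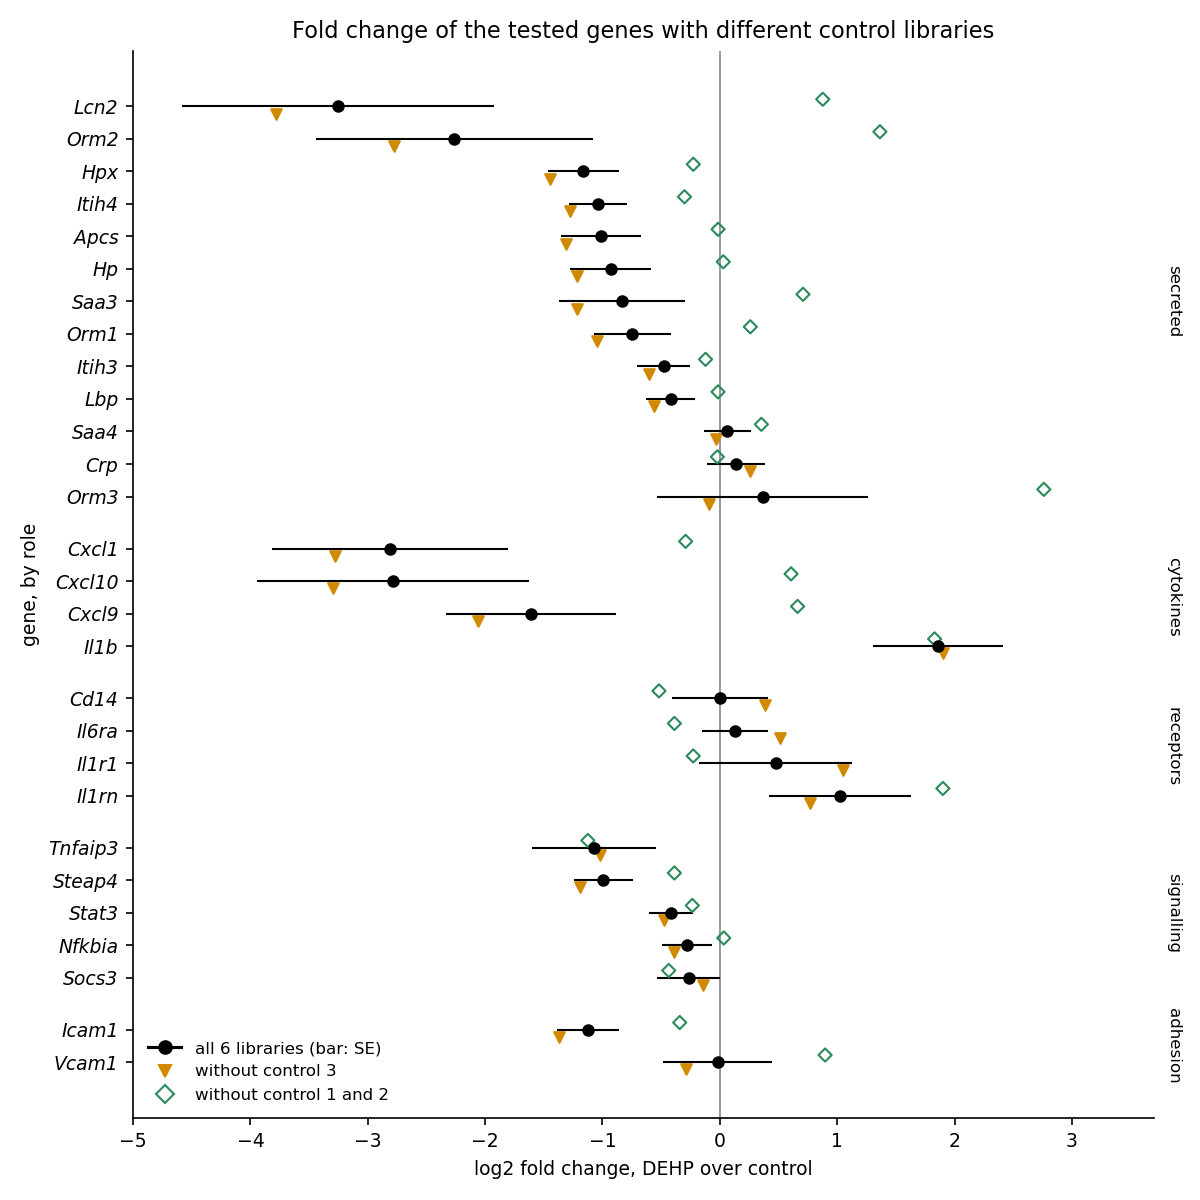
Log2 fold change of DEHP over control libraries for the 28 tested genes, with all 6 libraries (black, bars are SE), without control replicate 3 (triangles) and without control replicates 1 and 2 (open diamonds, no error shown). Lcn2 lies at -3.78 without control replicate 3 and at 0.88 without control replicates 1 and 2, and Il1b at 1.90 and 1.83.

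Haptoglobin (Hp), which binds free haemoglobin, and hemopexin (Hpx), which binds free haem, were the most abundant members. Hp had 10728, 8084 and 6417 CPM in DEHP libraries, against 23965, 15810 and 8305 CPM in control libraries. Its groups overlapped, since control replicate 3 lay below DEHP replicate 1, and its log2 fold change was -0.93 ± 0.35 (SE, adjusted p = 0.320, edgeR). Hpx had 6514, 5977 and 4664 CPM in DEHP libraries, against 15969, 15735 and 6745 CPM in control libraries. All 3 DEHP libraries lay below all 3 controls, but control replicate 3 was closer to the DEHP libraries than to the other controls. The log2 fold change of Hpx was -1.16 ± 0.30 (SE, adjusted p = 0.178, edgeR), and it passed with DESeq2 (adjusted p = 0.00726). Its adjusted p ran from 1.03e-04 with no low-count filter to 0.601 without DEHP replicate 2, over alternatives that kept several control libraries (edgeR). In the table's own coordinates, those of the C57BL/6NJ strain annotation, Hp spans chromosome 8 from 116141141 to 116145183 and Hpx chromosome 7 from 113212777 to 113221025, both as protein-coding genes on the minus strand.

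Together the 13 secreted genes took 1.96%, 1.68% and 1.43% of annotated counts in DEHP libraries, against 4.59%, 3.87% and 1.76% in control libraries. Hp and Hpx made up 79.1% to 86.4% of that share in DEHP libraries and 82.8% to 88.6% in control libraries. The 19 other genes with a row took 0.0335% to 0.0434% of counts in DEHP libraries and 0.0446% to 0.0536% in control libraries. Set per kilobase of the table's gene length, which allows levels to be compared between genes, Hp averaged 6262 ± 1619 CPM per kilobase in DEHP libraries and 11933 ± 5832 in control libraries (SD, n = 3). Hpx followed with 3869 ± 644 in DEHP libraries and 8671 ± 3559 in control libraries. Orm1, the next gene, had 490 ± 114 CPM per kilobase in DEHP libraries and 823 ± 362 in control libraries. Saa3 and Lcn2 were at the low end in DEHP libraries, with 15.0 ± 8.0 and 4.78 ± 2.24 CPM per kilobase.

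**Figure D3:**
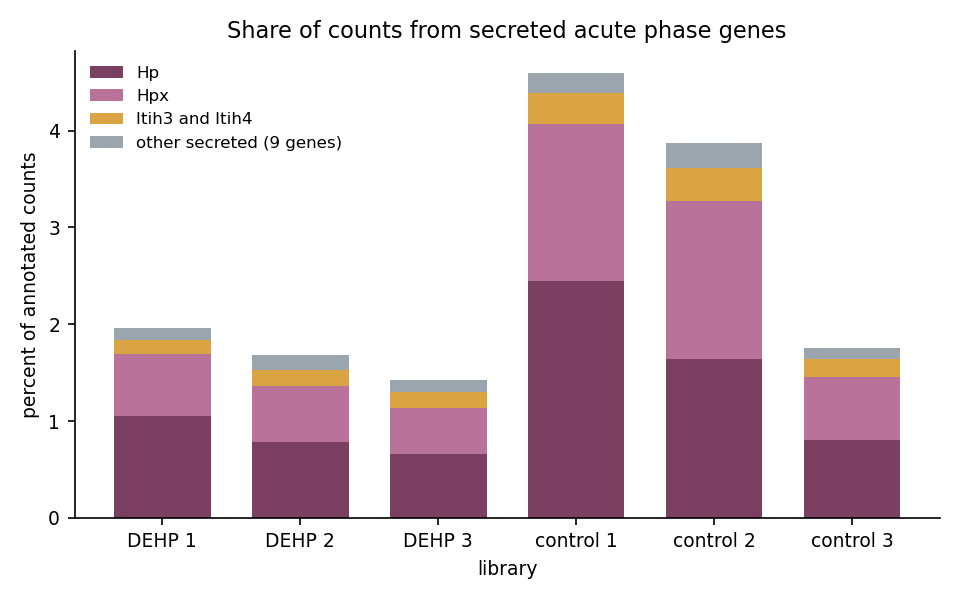
Share of annotated counts from the 13 secreted acute phase genes in each library, in percent, stacked as Hp, Hpx, Itih3 with Itih4, and the 9 other genes. Control replicates 1 and 2 reach 4.59% and 3.87%, while control replicate 3 at 1.76% lies among the DEHP libraries, which run from 1.43% to 1.96%.

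Lcn2, a lipocalin that binds bacterial iron carriers and is strongly induced in hepatocytes by interleukin-6 and interleukin-1, had the largest negative fold change of the 28 tested genes. It had 6.28, 18.0 and 13.3 CPM in DEHP libraries, against 161, 191 and 6.91 CPM in control libraries. Control replicate 3 lay within the DEHP range, and the lower of the other 2 controls was 8.98-fold above the highest of the remaining 4 libraries. The log2 fold change was -3.25 ± 1.33 (SE, adjusted p = 0.417, edgeR). Without control replicate 3 it was -3.78 (adjusted p = 1.28e-05), and over the 15 alternatives the adjusted p ran from 1.28e-05 to 0.988.

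The alpha-1-acid glycoproteins Orm1, Orm2 and Orm3, plasma lipocalins that bind drugs, lie next to each other on chromosome 4 and have similar sequences, so reads may be split between them and their values are uncertain. Orm1, the most abundant, had 329, 482 and 329 CPM in DEHP libraries, against 741, 852 and 321 CPM in control libraries (log2 fold change -0.75 ± 0.33, SE, adjusted p = 0.374). Orm2 had 18.5, 22.4 and 9.94 CPM in DEHP libraries, against 83.1, 154 and 6.65 CPM in control libraries (-2.26 ± 1.18, adjusted p = 0.506). In both genes control replicates 1 and 2 were high and control replicate 3 was the lowest of the 6 libraries. Orm3 had another order, with 8.30, 30.4 and 21.8 CPM in DEHP libraries, against 28.3, 15.6 and 3.01 CPM in control libraries (0.36 ± 0.90, adjusted p = 0.910). Orm2 made up 2.76% to 5.20% of the counts of the 3 genes in DEHP libraries, against 9.75%, 15.1% and 2.01% in control libraries.

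Apcs, serum amyloid P, the main acute phase pentraxin of the mouse, had 105, 90.8 and 67.7 CPM in DEHP libraries, against 188, 254 and 89.5 CPM in control libraries (log2 fold change -1.01 ± 0.34, SE, adjusted p = 0.281). Its neighbour on chromosome 1, Crp, which in the mouse responds little, had 263, 400 and 316 CPM in DEHP libraries, against 196, 360 and 334 CPM in control libraries (0.14 ± 0.24, adjusted p = 0.855). The order of libraries differed between these neighbours, since control replicate 1 was the lowest library for Crp and the second highest for Apcs. The difference between them was not tested.

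Itih4, an inter-alpha-trypsin inhibitor heavy chain of the acute phase, had 807, 765 and 692 CPM in DEHP libraries, against 1810, 1898 and 937 CPM in control libraries. All DEHP libraries lay below all controls (log2 fold change -1.04 ± 0.25, SE, adjusted p = 0.151), and DESeq2 called it (adjusted p = 0.00711). Its adjusted p ran from 6.63e-04 with no low-count filter to 0.577 without DEHP replicate 2, over alternatives that kept several control libraries (edgeR). The neighbouring Itih3, a related heavy chain, had 645, 947 and 998 CPM in DEHP libraries, against 1270, 1389 and 948 CPM in control libraries, and its groups overlapped (-0.48 ± 0.22, adjusted p = 0.385). Lbp, which carries bacterial lipopolysaccharide to Cd14, had 173 to 224 CPM in DEHP libraries and 198 to 299 CPM in control libraries (-0.42 ± 0.21, adjusted p = 0.413).

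Serum amyloid A proteins travel on high-density lipoprotein, and Saa1 and Saa2 are the strongly induced pair in mouse liver. Saa3, which is also made outside hepatocytes, had 12.9, 5.32 and 5.69 CPM in DEHP libraries, against 20.6, 16.7 and 4.87 CPM in control libraries (log2 fold change -0.83 ± 0.54, SE, adjusted p = 0.557). Saa4, the constitutive member, had 342, 391 and 289 CPM in DEHP libraries, against 344, 365 and 269 CPM in control libraries (0.06 ± 0.20, adjusted p = 0.928). Outside the symbol rule, and picked after its values were seen, 1 locus without a gene name is described in the table as Saa1. It lies on an unplaced scaffold and had 165, 525 and 227 counts in DEHP libraries, against 3012, 4745 and 155 counts in control libraries. With loci without a gene name added to the fit, its log2 fold change was -2.86 ± 1.30 (SE, adjusted p = 0.455, edgeR). Control replicate 3 was again the lowest library. Reads of Saa2 may have been counted at this locus too, which was not tested.

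Control replicates 1 and 2 were the 2 highest libraries for all 3 tested chemokines, as for 12.7% of all genes tested. Cxcl1, which attracts neutrophils through CXCR2, had 2.73, 4.62 and 1.87 CPM in DEHP libraries, against 45.3, 15.6 and 3.81 CPM in control libraries (log2 fold change -2.81 ± 1.00, SE, adjusted p = 0.361). Cxcl9 and Cxcl10 are interferon-induced chemokines that attract T cells through CXCR3. Cxcl9 had 3.24, 8.03 and 5.35 CPM in DEHP libraries, against 21.1, 26.2 and 3.54 CPM in control libraries (-1.61 ± 0.73, adjusted p = 0.416). Cxcl10 had 0.709, 3.75 and 2.72 CPM in DEHP libraries, against 24.0, 24.6 and 1.59 CPM in control libraries (-2.79 ± 1.16, adjusted p = 0.408). For all 3 genes control replicate 3 lay inside the range of the DEHP libraries. Over the 15 alternatives the adjusted p of Cxcl10 ran from 3.31e-04, without control replicate 3, to 0.998.

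Il1b encodes interleukin-1 beta, a fever-inducing cytokine made by macrophages. It had 1.92, 3.84 and 5.52 CPM in DEHP libraries, from 19, 44 and 65 counts, against 0.780, 1.26 and 1.06 CPM in control libraries, from 11, 16 and 12 counts. All 3 DEHP libraries lay above all 3 controls, and it was the single member with that order (log2 fold change 1.86 ± 0.55, SE, unadjusted p = 0.00457, adjusted p = 0.210, edgeR). Its log2 fold change was 1.90 without control replicate 3 and 1.83 without control replicates 1 and 2, and with 1 library left out it ran from 1.48 to 2.19. Its adjusted p over the 15 alternatives ran from 0.0561 to 0.988. Il1rn, the antagonist of the interleukin-1 receptor, had 1.01, 3.93 and 4.93 CPM in DEHP libraries, against 2.20, 1.74 and 0.886 CPM in control libraries (1.03 ± 0.60, adjusted p = 0.493). DEHP replicates 2 and 3 were the 2 highest libraries for both genes.

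The 4 members below the filter had few counts. Ccl2, which attracts monocytes through CCR2, had 0, 1 and 4 counts in DEHP libraries, against 46, 35 and 2 counts in control libraries. Tnf had 0, 0 and 2 counts in DEHP libraries, against 5, 12 and 2 in control libraries. Cxcl2, a relative of Cxcl1, had 0, 2 and 0 counts in DEHP libraries and 0, 5 and 2 in control libraries. Il6 had 0 counts in each DEHP library, which allows up to 0.304, 0.262 and 0.255 CPM at 3 counts a library, and 0, 0 and 2 counts in control libraries. A difference in Il6 or Cxcl2 was not detectable at this depth, and such limits cover counting error only.

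None of the 4 receptor and antagonist genes had control replicates 1 and 2 above the other libraries, where 12.7% of all genes tested did. A set of 4 genes is too small to set apart from that share. Il1r1, the signalling receptor for interleukin-1, had 178, 114 and 40.7 CPM in DEHP libraries, against 56.4, 51.8 and 130 CPM in control libraries (log2 fold change 0.48 ± 0.65, SE, adjusted p = 0.813). Il6ra had 44.3, 75.1 and 47.9 CPM in DEHP libraries, against 42.2, 37.2 and 73.7 CPM in control libraries (0.13 ± 0.28, adjusted p = 0.890). Cd14, the lipopolysaccharide co-receptor, had 2.94, 4.71 and 5.18 CPM in DEHP libraries, against 3.19, 3.48 and 6.20 CPM in control libraries (0.0040 ± 0.41, adjusted p = 0.997). Control replicate 3 was the highest control for all 3 of these, the reverse of its place for the chemokines, and the groups overlapped for each.

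Among transcription factors and feedback genes, Steap4 and Stat3 had groups that did not overlap. Steap4, a metalloreductase induced in inflamed tissue, had 29.97, 29.7 and 39.2 CPM in DEHP libraries, against 62.9, 90.2 and 43.4 CPM in control libraries (log2 fold change -0.99 ± 0.25, SE, adjusted p = 0.169). DESeq2 called it (adjusted p = 0.0287). Its adjusted p ran from 0.00181 with no low-count filter to 0.601 without DEHP replicate 2, over alternatives that kept several control libraries (edgeR). Stat3 had 82.9, 73.2 and 89.2 CPM in DEHP libraries, against 114, 116 and 96.9 CPM in control libraries (-0.42 ± 0.19, adjusted p = 0.368). Socs3, which blocks signalling from the interleukin-6 receptor and is a target of STAT3, had 13.5, 20.8 and 15.5 CPM in DEHP libraries, against 24.2, 13.0 and 22.7 CPM in control libraries (-0.27 ± 0.27, adjusted p = 0.722). Nfkbia, which holds NF-kappaB in the cytoplasm, had 33.4 to 49.7 CPM in DEHP libraries and 39.5 to 56.5 CPM in control libraries (-0.28 ± 0.21, adjusted p = 0.615). Tnfaip3, which encodes the inhibitor A20, had 1.01, 1.31 and 2.72 CPM in DEHP libraries, against 2.34, 4.66 and 3.72 CPM in control libraries (-1.07 ± 0.53, adjusted p = 0.406).

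Of the adhesion molecules, Icam1, the ligand of leukocyte integrin LFA-1, had 20.4, 17.6 and 17.0 CPM in DEHP libraries, against 46.4, 49.9 and 23.4 CPM in control libraries. Its groups did not overlap, and its DEHP libraries were close together (log2 fold change -1.12 ± 0.26, SE, unadjusted p = 8.31e-04, adjusted p = 0.144, edgeR). DESeq2 called it (adjusted p = 0.0167). Its adjusted p ran from 4.77e-04 with no low-count filter to 0.579 without DEHP replicate 2, over alternatives that kept several control libraries (edgeR). Without control replicates 1 and 2, its log2 fold change was -0.34. Vcam1, the ligand of integrin VLA-4, had 9.72, 26.7 and 12.9 CPM in DEHP libraries, against 14.7, 26.3 and 8.95 CPM in control libraries (-0.019 ± 0.46, adjusted p = 0.993).

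Other genes of the same response were read from lists of the pathway. Of 21 tested acute phase proteins outside the members, 17 had a negative value, with a median log2 fold change of -0.32, and 0 passed (edgeR). At an unadjusted p of 0.05, 3 were lower and 0 higher, where 6.97% of all genes were lower and 6.11% higher, shares that also apply to the other lists. Fgl1, a fibrinogen-like hepatokine, had 409, 532 and 357 CPM in DEHP libraries, against 1629, 1614 and 440 CPM in control libraries (-1.51 ± 0.48, SE, adjusted p = 0.290). Fga, the fibrinogen alpha chain, had 1642 to 2170 CPM in DEHP libraries and 2057 to 3408 CPM in control libraries (-0.54 ± 0.23, adjusted p = 0.345). Itih1, another heavy chain, was below all controls in all DEHP libraries (-0.40 ± 0.18, adjusted p = 0.376). Control replicates 1 and 2 both lay above the other libraries for 3 of these 21 genes, a share near the 12.7% of all genes.

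Proteins that fall in the acute phase had a median of 0.10 over 10 tested genes, with 0 passing (edgeR, 1 lower and 0 higher at an unadjusted p of 0.05). The 1 was Apoa1, the main protein of high-density lipoprotein, at 17278, 14032 and 14634 CPM in DEHP libraries, against 33078, 17149 and 23766 CPM in control libraries (-0.69 ± 0.25, SE, adjusted p = 0.290). Of 42 tested genes for receptors and signal transduction of interleukin-6, interleukin-1, tumour necrosis factor and lipopolysaccharide, 28 had a negative value, with a median of -0.18, and 0 passed (edgeR, 5 lower and 1 higher at an unadjusted p of 0.05, against 6.97% and 6.11% of all genes). Chuk, an IkappaB kinase subunit, was 112 to 143 CPM in DEHP libraries and 79.9 to 94.5 CPM in control libraries (0.58 ± 0.19, adjusted p = 0.251). Tnfrsf1a, the main receptor for tumour necrosis factor, was 59.1 to 90.8 CPM in DEHP libraries and 97.2 to 144 CPM in control libraries (-0.66 ± 0.22, adjusted p = 0.252). Nfkbib and Nfkb1, an NF-kappaB inhibitor and subunit, had -0.59 ± 0.21 and -0.55 ± 0.21 (adjusted p = 0.282 and 0.309). These 4 had the smallest p of the list. Over the whole list the groups did not overlap for 6 genes lower and 2 higher of 42, where 8.57% and 9.17% of all genes did not.

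Of 13 other tested cytokines and chemokines, 8 had a negative value (median -0.27) and 0 passed (edgeR, 1 lower and 1 higher at an unadjusted p of 0.05, near the 6.97% and 6.11% of all genes). Il18, a cytokine made by Kupffer cells and hepatocytes, had 10.03, 10.6 and 9.60 CPM in DEHP libraries, against 19.5, 16.5 and 15.5 CPM in control libraries (-0.77 ± 0.23, SE, adjusted p = 0.218). Its 3 control libraries were close together, unlike those of Lcn2 or Cxcl10.

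**Figure D4:**
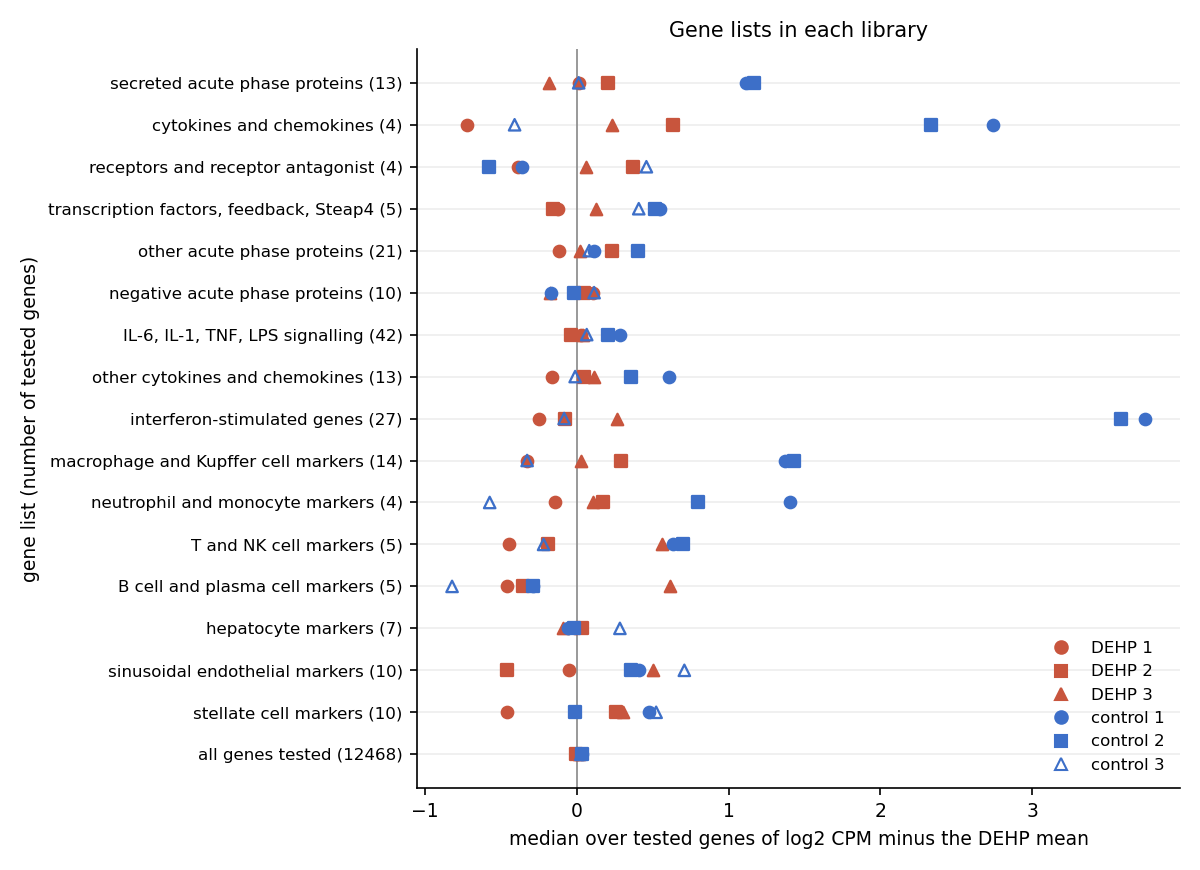
Median over the tested genes of each list of log2 CPM minus the mean of the DEHP libraries, for each library. Control replicates 1 and 2 lie at 1.12 and 1.17 for the secreted proteins, 2.74 and 2.33 for cytokines and chemokines, and 3.74 and 3.59 for interferon-stimulated genes, while control replicate 3 lies at 0.01, -0.41 and -0.08.

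The sums of the interferon, macrophage and neutrophil or monocyte lists were high in control replicates 1 and 2, as many of the acute phase genes were, while T and NK, B cell, endothelial and stellate sums were not both above the other libraries there. All 27 tested interferon-stimulated genes had a negative value, with a median log2 fold change of -3.15, and 0 passed (edgeR, 24 lower and 0 higher at an unadjusted p of 0.05). For all 27, control replicates 1 and 2 both lay above the other 4 libraries, where 12.7% of all genes tested did so. Stat2, Irf1, Mx1 and Mx2, which transduce interferon signals or restrict viruses, had the smallest p of the list and were the 4 of its 27 genes whose groups did not overlap, where 8.57% of all genes were lower without overlap. Stat2 had 75.2, 47.6 and 59.4 CPM in DEHP libraries, against 241, 193 and 93.8 CPM in control libraries (-1.53 ± 0.32, SE, adjusted p = 0.142). The log2 fold change of Irf1 was -2.05 ± 0.51, that of Mx1 -3.58 ± 0.90 and that of Mx2 -2.54 ± 0.50, with adjusted p-values of 0.143 to 0.233. Irf7, a regulator of interferon genes, had 46.9, 45.1 and 64.9 CPM in DEHP libraries, against 1073, 820 and 32.4 CPM in control libraries. Isg15, a ubiquitin-like interferon target, had 4.66, 5.06 and 6.46 CPM in DEHP libraries, against 491, 280 and 4.34 CPM in control libraries. The 14 macrophage and Kupffer cell markers summed to 315 to 473 CPM in DEHP libraries, against 1166, 1055 and 299 CPM in control libraries. Fewer cells of a type and less RNA per cell cannot be told apart in whole liver. The neutrophil and monocyte list summed to 9.52 to 10.6 CPM in DEHP libraries, against 62.8, 44.3 and 6.29 CPM in control libraries. Ly6g and Mpo were at 0 in all 6 libraries. Plac8, picked after its values were seen, made up most of the sum in control replicates 1 and 2, and had 4.25 to 5.06 CPM in DEHP libraries, against 50.5, 35.7 and 2.84 CPM in control libraries. T and NK cell markers summed to 7.70 to 16.9 CPM in DEHP libraries and 8.42 to 10.9 CPM in control libraries, and B and plasma cell markers to 13.9 to 43.1 CPM and 10.3 to 12.9 CPM. Endothelial markers summed to 207 to 378 CPM in DEHP libraries and 366 to 459 CPM in control libraries, and stellate cell markers to 123 to 212 CPM and 199 to 257 CPM. The part of any of these in the levels of the acute phase genes was not tested.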

How the data were processed

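Counts per gene were deposited as whole numbers, 1 column per library, in a table whose identifiers belong to the Ensembl C57BL/6NJ strain annotation, per the file headers. The submitters' processing notes name GRCm38.p6; for aligner, counter and strand setting, nothing is stated (not given in the sources used here). A strand-marking kit was used, per the labels' protocols. Groups came from sample titles. The 1284 loci without a gene name, 2.73% to 4.28% of counts, stayed out of library sizes and tests. The test was that of edgeR 4.0.16 under R 4.3.3 (low genes removed by filterByExpr, minimum count 10, TMM, robust quasi-likelihood, two-sided, no covariate, Benjamini-Hochberg adjustment over 12468 genes); fold changes are log2 of DEHP over control, with SE from the F statistic. The gene length deposited by the authors served for levels per kilobase. Alternatives included DESeq2 1.42.0 and limma-voom (limma 3.58.1). The test was checked on simulated data with independent libraries and the same spread of a gene in both groups. That check did not cover control libraries that stand apart together, as control replicates 1 and 2 do here. No 2 libraries within a group agreed within counting noise (chi-square divided by its degrees of freedom, at least 31.1). The members, lists and alternatives were chosen with earlier results of these data known. Named genes are all members, from each pathway list the up to 4 of smallest unadjusted p under 0.05 and a mean level of 5 CPM or more, plus Irf7 and Isg15; 1 further gene of the rule is not reported here.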

Additional observations from a re-analysis of the deposited data

How the results depend on the processing

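Of 420 values of single genes recomputed over 15 alternatives, 363 kept their direction and side of the threshold, 23 passed it and 34 had the other sign. Over all genes, 9 passed with all libraries, 496 with no low-count filter, 252 with DESeq2, 0 without control replicates 1 and 2 (642 at an unadjusted p of 0.05, edgeR), and 5 to 400 with 1 library left out. Of the genes described here 0 passed (edgeR, 10 at an unadjusted p of 0.05), against 8 with no filter, 4 with DESeq2, and 0 to 13 with 1 library left out. The 13 were without control replicate 3. Both the 8 and the 13 include Ccl2, which without control replicate 3 passes the filter only through the control libraries. At an unadjusted p of 0.05 the fewest with 1 library left out were 6, without control replicate 2 (edgeR, 10.6% of all genes). The most were 18, without control replicate 3 (edgeR, 16.0% of all genes). With 1 library left out, the median of secreted proteins was lowest, -1.22, without control replicate 3 and highest, -0.52, without control replicate 1. It was 0.029 without control replicates 1 and 2. The median of the other genes was -0.96 with no filter and -0.97 with DESeq2, where 19 in place of 15 genes were tested, and -0.50 to -0.17 with 1 library left out.

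Signs turned as follows. Vcam1 was 0.0019 with RLE scaling, 0.017 with no filter, 0.0033 with a mean of at least 1 CPM, 0.0039 with DESeq2 and 8.2e-05 with unnamed loci added. Without control replicates 1 and 2, Saa3 was 0.71, Crp -0.021, Hp 0.029, Orm1 0.26, Orm2 1.36, Lcn2 0.88, Cxcl9 0.66, Cxcl10 0.61, Cd14 -0.52, Il6ra -0.39, Il1r1 -0.23, Nfkbia 0.034 and Vcam1 0.90. With 1 library left out, Vcam1 ran from -0.54 to 0.47, Il1r1 from -0.018 to 1.05, Saa4 from -0.035 to 0.17, Crp from -0.089 to 0.30, Orm3 from -0.094 to 1.11, Cd14 from -0.17 to 0.39 and Il6ra from -0.14 to 0.51. The causes were not tested. The labels number replicates 1 to 3 in both groups. Over all genes tested, deviations from the group means were nearly uncorrelated between same-numbered libraries (-0.021, 0.057 and -0.028). Such correlations cannot exclude a pairing, and the main fit used none. With the replicate block 6 genes passed over all and 0 of those described here (edgeR, 10 at an unadjusted p of 0.05). Counts of few reads, as for Il6, Tnf and Cxcl2, limit what this depth can show.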
